A study of Bos taurus with 3 samples.

Results

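R-spondin 1 (RSPO1, NM_001105621.1) and WNT inhibitory factor 1 (WIF1, NM_001075996.1) are secreted proteins that act on Wnt signalling from outside the cell. They were taken as the genes whose symbol, the last name in brackets of the deposited description, was RSPO1 or WIF1, which gave 2 of the 9154 genes listed in any of the libraries, with 1 entry each. The pair was chosen by its tag counts in these same libraries, highest at day 7 before parturition and 0 at day 3 after it, so the levels and ratios of RSPO1 and WIF1 are given as a description, without a test.

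Wnt ligands bind Frizzled receptors and the co-receptors LRP5 and LRP6, which keeps β-catenin from being degraded and lets it act with TCF and LEF factors on target genes. R-spondins bind LGR receptors and draw the ubiquitin ligases RNF43 and ZNRF3 away from the Frizzled receptors, which makes cells more sensitive to Wnt. WIF1 works in the other direction, since it binds Wnt ligands and holds them off their receptors. In the mammary gland of the mouse, Wnt signalling is known for its part in the growth of ducts and alveoli and in the upkeep of stem cells.

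Mammary biopsies came from 18 Holstein cows of the second parity, with no other treatment named, 6 at each of 3 time points: day 35 before parturition (−35 d, dry gland), day 7 before parturition (−7 d, stage I of lactogenesis) and day 3 after parturition (+3 d, stage II). RNA was isolated from pools of the 6 cows, which gave 1 library per time point, and no difference between libraries could be checked in replicate libraries. The paper also ran quantitative PCR on selected genes, with the same RNA and with independent RNA from biological replicates, and reports similar trends. β-casein and PNMT were among those genes, while RSPO1 and WIF1 were not. Expression was measured by digital gene expression (DGE), which counts tags of 21 bases, a CATG site and the 17 bases after it. A level in TPM is the number of tags on a gene per 1000000 clean tags, the tags left after filtering. Tags are cut at CATG sites, and their number is not scaled to the length of the transcript. The libraries held 5593237 to 5914422 clean tags, of which 40.5% to 53.0% fell on listed genes. As a check of the tissue, the milk protein gene CSN2 (β-casein) rose from 735 TPM at −35 d to 64463 TPM at +3 d, and the epithelial gene EPCAM was listed in all 3 libraries, while the luminal keratins KRT18 and KRT19 were not listed. The 5 milk protein genes that each took over 1% of a library together held 0.348% of the clean tags at −35 d and 22.6% at +3 d, which lowers the TPM of all other genes at +3 d. In stage I (−7 d against −35 d), the median log2 ratio of all genes averaging 1 TPM or more was −0.20. It was −0.31 in stage II (+3 d against −7 d) and −0.53 for +3 d against −35 d. Ratios of single genes can be read against these values.

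RSPO1 was counted with 29 tags in the −35 d library and 130 in the −7 d library. It was not listed in the +3 d library and was taken there as having 0 tags. In TPM, its level was 4.90 at −35 d (95% Poisson interval 3.28 to 7.04), 23.2 at −7 d (19.4 to 27.6) and 0 at +3 d, where an upper limit of 3 tags is 0.513 TPM. The order of the levels was therefore −7 d, −35 d and +3 d, and neither the intervals nor this limit overlapped. These intervals cover counting error only, since PCR can copy a molecule into several tags and the spread among cows was lost in the pools. The level at −7 d was 4.74 times that at −35 d, a log2 ratio of 2.24 (95% exact binomial interval 1.66 to 2.88). Set against the limit of 3 tags, and with the earlier counts taken as observed, RSPO1 was at least 45.3-fold lower at +3 d than at −7 d and at least 9.55-fold lower than at −35 d. The exact binomial limits, which also cover the counting error of the earlier library, were lower at 36.3-fold and 7.29-fold. All of these bounds hold only if RSPO1 had no tag at +3 d that was left out of the listing. In bulk tissue, fewer cells of a type and less RNA per cell cannot be told apart.

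**Figure D1:**
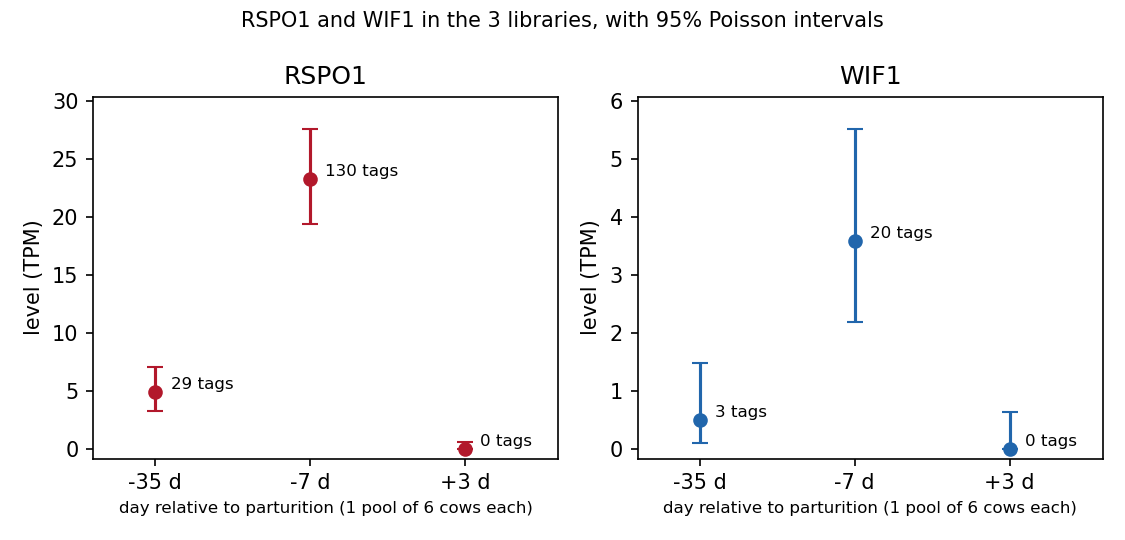
Level of RSPO1 (left) and WIF1 (right) in TPM against the day relative to parturition. Each point is 1 library from a pool of 6 cows, bars are 95% Poisson intervals of the tag count and the vertical axes differ. Both genes were highest at −7 d, with 130 and 20 tags, and had no tag at +3 d.

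WIF1 followed the same order of the libraries with far fewer tags: 3 at −35 d and 20 at −7 d. It was also not listed at +3 d and was taken there as having 0 tags. Its level was 0.507 TPM at −35 d (95% Poisson interval 0.105 to 1.48), 3.58 TPM at −7 d (2.18 to 5.52) and 0 TPM at +3 d, with the same upper limit of 0.513 TPM. The interval at −7 d lay above those of the other libraries, whereas the interval at −35 d took in the limit at +3 d, so these neighbours did not differ beyond counting error. The ratio of −7 d to −35 d was 7.05, with a 95% exact binomial interval of 2.09 to 37.0, a width that comes from the 3 tags at −35 d. Against the limit of 3 tags, WIF1 was at least 6.97-fold lower at +3 d than at −7 d, with an exact binomial limit of 5.16-fold. Like those of RSPO1, these bounds hold only if no tag was left out of the listing. No fold is given for +3 d against −35 d, because neither count is above 3 tags.

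The ratios of both genes had the same direction under every scaling tried. With edgeR's TMM scaling, which centres the ratios of most genes near 0, the log2 ratio at −7 d against −35 d was 2.43 for RSPO1 and 3.01 for WIF1. With 0.5 tags added to each count, 44 of the 7606 genes averaging 1 TPM or more in that pair had a higher ratio than RSPO1 and 26 a higher ratio than WIF1. At +3 d against −7 d, none of 7436 genes had a lower ratio than RSPO1 on that scale, and 6 had a lower ratio than WIF1. The pair was chosen by these values, so its places in these orders are no test.

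The absence from the +3 d listing of a gene with as many tags as RSPO1 can be set beside the other genes. In all, 425 genes were listed at −7 d and not at +3 d, with a median of 3 tags at −7 d, and 275 of them had at most 3 tags. RSPO1 had the most tags of these genes at −7 d, and the next was PNMT, the enzyme that makes adrenaline from noradrenaline, with 46 tags at −7 d. Of the 3514 genes with at least 100 tags at −7 d, RSPO1 was the one not listed at +3 d, and the lowest count among the others was 4 tags. WIF1 was one of the 9 genes with at least 20 tags at −7 d that were not listed at +3 d, out of 6233 genes with that many tags. RSPO1 and WIF1 were chosen by these same counts, and the cut of 20 tags equals the count of WIF1 at −7 d. Their places among these genes are therefore a description and do not test whether the missing entries at +3 d are unusual.

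**Figure D2:**
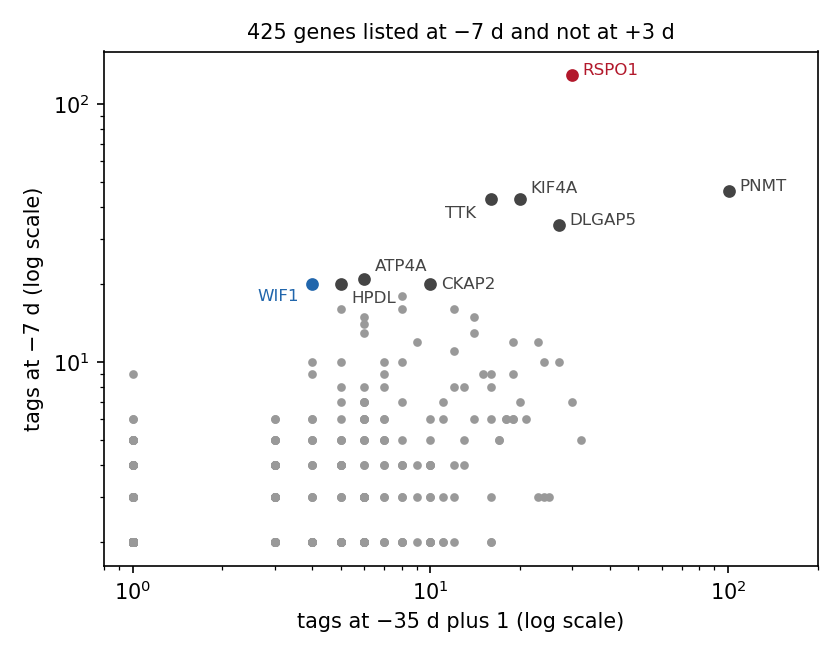
Tags at −7 d against tags at −35 d plus 1, both on log scales, for the 425 genes listed at −7 d and not at +3 d. Each point is a gene and the 9 genes with at least 20 tags at −7 d are named. RSPO1 stands above the others with 130 tags.

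A gene that is not listed is not shown to be without tags. The summary deposited with the data counts 8582 genes with unambiguous tags at +3 d, 223 more than the table lists, and the gap was 209 genes at −35 d and 228 at −7 d. Tags seen only once were also removed before counting. The tag tables bear on RSPO1 in 1 respect. Among the distinct tags that had no copy at +3 d and no more copies than RSPO1 in either earlier library, the highest number of copies at −7 d was 105, so that if RSPO1 had no tag at +3 d its 130 tags came from at least 2 distinct tags. For WIF1, 9 distinct tags of the tables had exactly 3 copies at −35 d and 20 at −7 d. Which tags belong to either gene was not established here.

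For comparison, a list of 110 other genes of the Wnt pathway was followed, of which 42 were listed in at least 1 library (43 entries, since TCF7L2 has 2). The 68 others may lack an unambiguous tag, so nothing can be said of their level. For these genes a difference between 2 libraries was called with the Audic-Claverie test, which asks whether tag counts differ by more than counting error. Calls needed an adjusted p (Benjamini-Hochberg over all genes) of at most 0.001 and at least a 2-fold difference. The test compares libraries, not conditions.

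Counted over the list, 4 of 42 entries tested were called in stage I, none higher and 4 lower, beside 9.07% of all genes called, 2.62% higher and 6.45% lower. In stage II, 3 of 41 entries were called higher and 2 lower, beside 13.5% of all genes called, 3.12% higher and 10.4% lower. TMM scaling changed that split to 4 higher and none lower, and that of all 8784 genes tested from 274 higher and 915 lower to 516 higher and 430 lower. For +3 d against −35 d, 2 of 43 entries were called higher and 7 lower, beside 18.6% of all genes called, 2.33% higher and 16.3% lower, and TMM scaling gave 4 higher and 2 lower, beside 560 higher and 444 lower of 8988 genes. When a biological coefficient of variation of 0.2 between pools was assumed, edgeR's exact test called SFRP1 alone in stage I and no entry in the other pairs. Over all genes it called 27 higher and 27 lower in stage I, 65 and 95 in stage II, and 54 and 102 for +3 d against −35 d. The median log2 ratio of the list was −0.59, 0.06 and −0.55 in these pairs, beside the medians of all genes given above. Of the 43 entries, 5 shared the order of RSPO1 by value, highest at −7 d and lowest at +3 d, or 11.6%, beside 19.9% of all listed genes. In tags at −35 d, −7 d and +3 d, these were FZD7 (15, 15 and 8), FZD10 (4, 5 and 0) and NKD1 (3, 5 and 2). The others were 1 of the TCF7L2 entries (23, 22 and 12) and PYGO2 (185, 246 and 158). None of the 5 was called in any pair.

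The partners of RSPO1 were mostly out of reach. None of its receptors and ligases LGR4, LGR5, LGR6, RNF43 and ZNRF3 was listed in any library, nor were RSPO2 and RSPO4. RSPO3, the other R-spondin with tags, had 3, 4 and 11 tags in the −35 d, −7 d and +3 d libraries, or 0.507, 0.715 and 1.88 TPM. Its level at +3 d was 1.40 higher on the log2 scale than at −7 d (95% exact binomial interval −0.36 to 3.50) and no pair of libraries passed the test. RSPO3 was thus highest by value in the library where RSPO1 was not listed, within counting error.

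Among the Wnt ligands, 4 of 19 were listed, and none passed the test in any pair. WNT11, which signals mainly without β-catenin, had 35, 16 and 29 tags in the −35 d, −7 d and +3 d libraries. WNT2 had 22, 10 and 5 tags in the same order, and WNT2B had 11, 10 and 6. WNT10A had 5, 0 and 3 tags. None of the 4 ligands had its highest level at −7 d. PORCN, the acyltransferase that attaches the lipid Wnt ligands need for secretion, was at 33.6 TPM at −35 d, 26.6 TPM at −7 d and 11.3 TPM at +3 d. PORCN fell by 1.24 on the log2 scale at +3 d against −7 d (Audic-Claverie test, adjusted p = 1.12e-08). This call was lost after TMM scaling, where its log2 ratio was −0.93. For +3 d against −35 d, PORCN was also called lower, with a log2 ratio of −1.58. That second call was kept after TMM scaling, at −1.08. It was lost with a 3-fold threshold and when a coefficient of variation between pools was assumed.

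WIF1 could be set beside 8 other secreted inhibitors that were listed, out of 14. The summed level of these 8 genes was 813 TPM at −35 d, 363 TPM at −7 d and 532 TPM at +3 d, a sum made up mostly of IGFBP4, SFRP1 and SFRP2. By value, 5 of the 8 were lowest at −7 d, where WIF1 was highest, while IGFBP4 and SFRP5 were lowest at +3 d. At −7 d against −35 d, 2 of the 8 were called lower and none higher, beside 6.45% and 2.62% of all genes. SFRP1, a Frizzled-related protein that binds Wnt ligands, went from 182 TPM at −35 d (1078 tags) to 37.7 TPM at −7 d (211 tags) and 90.8 TPM at +3 d (531 tags). It fell by 2.27 on the log2 scale at −7 d (95% exact binomial interval −2.49 to −2.06; Audic-Claverie test, adjusted p = 5.01e-128) and rose by 1.27 at +3 d against −7 d (Audic-Claverie test, adjusted p = 1.89e-28). IGFBP4, a binding protein of insulin-like growth factors that can also antagonise Wnt receptors, was at 365, 122 and 115 TPM in the 3 libraries and fell by 1.58 at −7 d on the log2 scale.

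At +3 d against −7 d, 3 of the 8 inhibitors were called higher and none lower, beside 3.12% and 10.4% of all genes, and the same 3 were called after TMM scaling. Besides SFRP1 these were SFRP4, from 22.2 to 79.4 TPM, and DKK3, a divergent member of the Dickkopf family, from 20.2 to 64.8 TPM. SFRP4 rose by 1.84 on the log2 scale (95% exact binomial interval 1.55 to 2.14) and DKK3 by 1.68. SFRP4 was higher at +3 d than at −35 d as well. SFRP2, at 184, 151 and 171 TPM, was not called in any pair, since its difference in stage I passed the adjusted p (Audic-Claverie test, 9.13e-05) but was 1.22-fold. SOSTDC1, at 8.45, 9.65 and 9.41 TPM, passed the test in no pair. SFRP5 had 7, 4 and 4 tags, and DKK2 had 3, 0 and 6 tags. SOSTDC1, an inhibitor of Wnt and BMP signals, was the one of the 8 whose highest value fell at −7 d, and its 3 intervals overlapped.

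**Figure D3:**
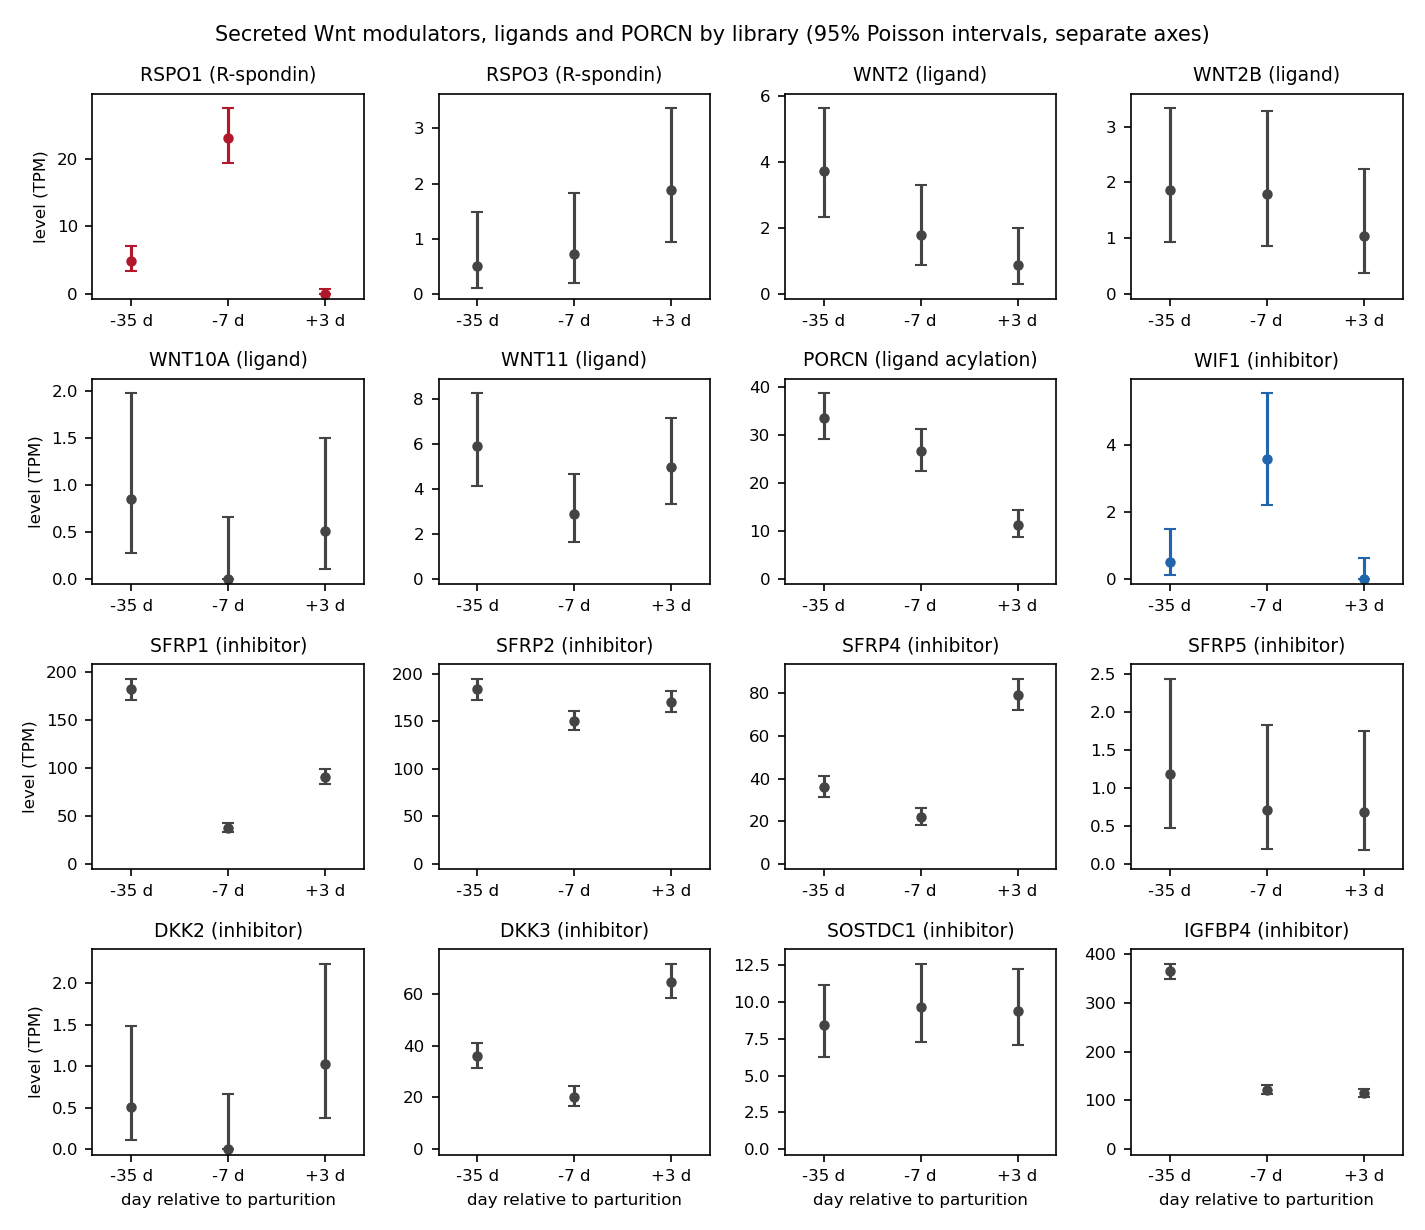
Levels in TPM of RSPO1, WIF1 and the other listed R-spondin, Wnt ligands, PORCN and secreted inhibitors against the day relative to parturition. Each point is 1 library, bars are 95% Poisson intervals and each panel has its own vertical axis from 0. RSPO1 and WIF1 peaked at −7 d, where SFRP1, SFRP4 and DKK3 were at their lowest of 37.7, 22.2 and 20.2 TPM.

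Inside the cell and at the membrane, the genes called with the totals of clean tags were lower in the later library with 1 exception, a pattern that depended on this scaling. CTNNB1, which encodes β-catenin, had 57.7 TPM at −35 d and 22.9 TPM at −7 d, with 123 tags left at +3 d, and fell by 1.33 on the log2 scale at −7 d against −35 d (Audic-Claverie test, adjusted p = 1.19e-19). The receptor FZD1 was at 137, 64.9 and 49.8 TPM and fell by 1.07 in the same pair, a call that was lost after TMM scaling with a log2 ratio of −0.88. PTK7, a co-receptor, was at 29.8, 25.6 and 11.3 TPM and fell by 1.18 at +3 d against −7 d, which TMM scaling reduced to a log2 ratio of −0.87 and no call. The corepressor CTBP2 fell by 1.43 for +3 d against −35 d, which TMM scaling reduced to −0.94, also without a call. The exception was the receptor FZD8, with 0, 7 and 13 tags. Set against the limit of 3 tags, FZD8 was at least 4.38-fold higher at +3 d than at −35 d. This bound takes the 13 tags as observed and does not cover their counting error. It also takes FZD8, not listed at −35 d, as having no tag there. After TMM scaling, the lower call of CTNNB1 in stage I was the one lower call left among these genes, and 1 TCF7L2 entry was called higher in stage II (log2 ratio 1.11) and TMEM88, a membrane inhibitor, for +3 d against −35 d (1.23). AXIN2 and SP5, targets that β-catenin induces, were not listed, while NKD1 had 3, 5 and 2 tags and NKD2 had 49, 21 and 28 tags without a call.

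**Figure D4:**
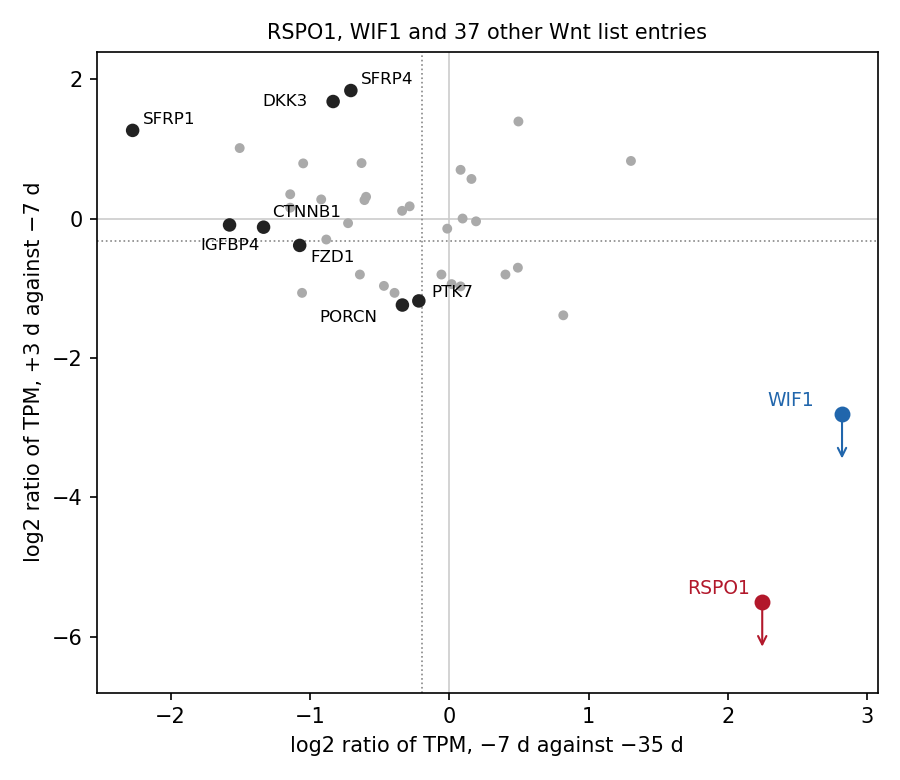
Log2 ratio of TPM at +3 d against −7 d against the log2 ratio at −7 d against −35 d, for RSPO1, WIF1 and 37 other entries of the Wnt list. Each point is a gene entry, dark points were called in either comparison, dotted lines are the medians of all genes, a count of 0 is set to 3 tags and the arrows mark that the lower ratios of RSPO1 and WIF1 are bounds. Both lie at the lower right, at 2.24 and −5.50 for RSPO1 and at 2.82 and −2.80 for WIF1. Both axes use the −7 d library.

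Mammary Wnt signals are linked to hormones, so 18 genes for hormone receptors, paracrine signals and related factors were followed as well, and 7 were listed. PGR, the progesterone receptor, had 10, 7 and 6 tags. ELF5, a transcription factor of alveolar cells, was at 271, 353 and 155 TPM and fell by 1.19 on the log2 scale at +3 d against −7 d, the one call of this list. After TMM scaling its log2 ratio was −0.88, without a call. ESR1, PRLR, AREG and TNFSF11 were not listed under these symbols. An entry named AREGB, which was not part of the list, had 15, 9 and 0 tags, so nothing is said here of amphiregulin as absent.

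Markers of cell types and of dividing cells also differed between the libraries. The 6 listed of 8 proliferation markers (CCNB1, CDK1, BUB1, AURKB, PLK1 and BIRC5, with MKI67 and TOP2A not listed) were all highest at −7 d and lowest at +3 d, like RSPO1 and WIF1, with a summed level of 39.7 TPM at −35 d, 99.2 TPM at −7 d and 10.9 TPM at +3 d. For the 5 listed of 7 luminal markers the sums were 1099, 827 and 545 TPM, although ELF5 was highest at −7 d. By value, 2 of these 5 were lowest at −7 d: KRT8, with 157 TPM there and 164 TPM at +3 d, and CDH1. CDH1 was at 8.79, 1.97 and 2.91 TPM and was called lower in stage I, also after TMM scaling. The 8 markers of myoepithelium and smooth muscle, all listed, summed to 933, 538 and 1143 TPM. By value, 6 of these 8 were lowest at −7 d, with KRT14 and OXTR as the exceptions. KRT5, at 160, 41.1 and 62.1 TPM, was called lower for +3 d against −35 d, a call lost after TMM scaling. The sums for 5 of 6 fibroblast markers, without PDGFRA, were 7618, 5728 and 8677 TPM. Of these 5, 4 were lowest at −7 d, while LUM was lowest at −35 d. The sums for 6 macrophage markers, all listed, were 137, 68.5 and 150 TPM. By value, 6 of their 7 entries were lowest at −7 d, whereas CD14 had 2.87, 4.29 and 19.7 TPM in the 3 libraries. For the 6 T cell markers, also all listed, the sums were 146, 96.9 and 97.3 TPM, within which CD8A was called higher in stage II. Endothelial markers (5 of 6, without VWF) gave 77.1, 53.5 and 86.4 TPM, and 4 of these 5 were lowest at −7 d, while KDR was lowest at +3 d. Adipocyte markers (4 of 5, without LIPE) gave 55.1, 45.2 and 36.4 TPM, although 2 of these 4 were highest at −7 d. The part of these shifts in the levels of RSPO1, WIF1 and the inhibitors was not tested.

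The genes most like each of the pair were found from the share of the summed TPM of a gene that falls in each library, among 7490 genes with at least 20 tags over the 3 libraries. RSPO1 had 17.4% of its TPM at −35 d and 82.6% at −7 d, and WIF1 12.4% and 87.6%. The measure is the summed absolute difference of the 3 shares, from 0 for the same shape to at most 2. For RSPO1 the nearest genes were ATP4A (0.0191; 5, 21 and 0 tags), HPDL (0.0303; 4, 20 and 0 tags), LOC100126043 (0.0340), FCGR2 (0.0727) and LOC100196900 (0.0759; 25, 102 and 4 tags), and WIF1 came next. For WIF1 they were HPDL (0.0696), CHRDL2 (0.0877; 13, 92 and 5 tags), RSPO1 in the third place, ATP4A (0.119) and FCGR2 (0.132). FCGR2, named in the files as a low-affinity receptor of IgG, had 3015, 15031 and 705 tags, and CHRDL2 is a secreted antagonist of bone morphogenetic proteins. These neighbours rest on 3 libraries, and their order was not tested against counting error.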

How the data were processed

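Clean tags are what the authors kept after a quality filter, which also dropped every tag with 1 copy. They were matched to bovine UMD 3.1 transcripts with at most 1 mismatch, and tags of several genes were left out. The deposited counts are the unambiguous tags per gene and the copies of each distinct tag, and the deposited TPM values are tags per 1000000 clean tags. The aligner is not given in the sources used here.

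Gene tables were joined by accession, and a gene not listed was given 0 tags. Deposited TPM and recomputed values differed by at most 0.0050 TPM, and recomputed values are printed. The symbols of RSPO1 and WIF1 matched their accessions in the annotation of ARS-UCD2.0, used for names only. For two-sided Audic-Claverie tests the smaller tail was multiplied by 2, with 0 TPM set to 0.01 TPM in ratios for calls. It was run on all genes and tested on simulated data. Medians have 0.5 tags added.

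The genes and lists were chosen with earlier results of these data known. Named are RSPO1, WIF1, all listed genes of the extracellular Wnt roles, other listed genes called in any pair, and the 5 genes nearest to each of RSPO1 and WIF1. PNMT, AREGB, the uncalled or unlisted receptors, targets and hormone genes, markers and genes sharing the order of RSPO1 fall outside this rule. Alternatives were TMM, DESeq2 size factors, totals without genes over 1%, Fisher's exact test, an assumed coefficient of variation of 0.2, a 3-fold threshold, a minimum of 5 TPM and 0.5 added tags. Tools were Python 3.11.15, scipy 1.17.1, pandas 2.3.3, R 4.3.3, edgeR 4.0.16 and DESeq2 1.42.0.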

Additional observations from a re-analysis of the deposited data

How the results depend on the processing

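No paired analysis was possible because each time point has 1 library, and for the same reason no replicate could be left out. The bounds of RSPO1 moved with the scaling while keeping their direction: at +3 d against −7 d the log2 bound was −5.18 with DESeq2 size factors in place of −5.50, and at +3 d against −35 d it was −2.76 with TMM and −2.74 with DESeq2 size factors in place of −3.26. With TMM scaling the median log2 ratio of the Wnt list became 0.37 at +3 d against −7 d and −0.056 at +3 d against −35 d, because TMM adds the same shift to every gene, and with a mean of at least 5 TPM it was −0.017 at +3 d against −7 d, the other direction from 0.06 (the cause was not tested). The Wnt entries called fell from 4, 5 and 9 in the 3 comparisons to 1, 2 and 2 with a 3-fold threshold and to 1, 0 and 0 when a coefficient of variation of 0.2 was assumed. The 1 hormone call at +3 d against −7 d became 0 with TMM, DESeq2 size factors, totals without genes over 1%, the 3-fold threshold and the assumed variation, while at +3 d against −35 d TMM and DESeq2 size factors each gave 1 call, CALCA, in place of 0. With at least 50 tags, 2 of the 5 genes most like RSPO1 and 3 of those most like WIF1 were among the nearest 5. The genes lost, ATP4A, HPDL and LOC100126043, had fewer than 50 tags and were removed by that filter itself. Their loss therefore does not bear on the order of the neighbours. With 0.5 tags added, which gives no bound for a count of 0, the log2 values at +3 d were −8.09 (against −7 d) and −5.87 (against −35 d) for RSPO1 and −5.42 (against −7 d) for WIF1. Of 81 recomputed values, 60 stayed within a set tolerance, 20 moved beyond it and 1 changed direction. For bounds the tolerance had an upper end only, so −8.09 in place of −5.50 counted as within it and −5.18 did not. Counts of 0 calls that stayed at 0 were also among the 60. The split of a count of calls could change even within that tolerance. In stage II, 3 higher and 2 lower Wnt entries became 4 higher and none lower with TMM. WIF1 at +3 d against −35 d has no ratio under any setting.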

Other observations

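Besides RSPO1, WIF1 and PNMT, the genes with at least 20 tags at −7 d and none listed at +3 d, named here after their values were seen, were KIF4A (19 tags at −35 d and 43 at −7 d), TTK (15 and 43), DLGAP5 (26 and 34), CKAP2 (9 and 20), ATP4A (5 and 21) and HPDL (4 and 20). KIF4A, TTK, DLGAP5 and CKAP2 act on the mitotic spindle or its chromosomes, ATP4A is the catalytic subunit of the gastric proton pump, and RSPO1 and WIF1 are the secreted proteins of this group of 9. PNMT had its highest count at −35 d, with 100 tags, and the 8 others had theirs at −7 d.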
